A study of Mus musculus with 8 samples.

Results

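Enteroendocrine cells, which secrete the hormones of the gut lining, were taken as single cells from intestinal organoids of a mouse Gcg-Venus reporter line (C57BL/6). Each was sequenced by SORT-seq, which counts RNA molecules with molecular identifiers. Venus is a fluorescent protein that marks use of Gcg, the gene of proglucagon and therefore of the gut hormone GLP-1. The cells described here are the Nts-dominant cells of the 2 Gcg-Venus plates, in which the neurotensin gene Nts gave more transcripts than Gcg although the sort selected for the Gcg reporter. Each plate holds 3 groups in fixed columns of wells: no BMP4 (columns 1 to 6), 24 h of BMP4 (columns 7 to 12) and 4 days of BMP4 (columns 13 to 24). BMP4 is a bone morphogenetic protein, and all 3 groups share the line, the reporter sort and the plate. The plate is the replicate (n = 2). Nothing states that the 2 plates came from separate cultures. With the plate as a block, a p-value reads how far differences between groups vary from plate to plate. That spread may be technical.

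A well was kept if it held at least 2000 transcripts and if the nuclear RNA Kcnq1ot1 made up under 5% of them. It was Nts-dominant if Nts reached 100 per 10000 transcripts and exceeded Gcg, and Gcg-dominant if Gcg reached 100 and exceeded Nts. By this rule 104 of the 346 kept wells of the Gcg-Venus plates were Nts-dominant, 67 of 181 on plate 1 and 37 of 165 on plate 2. The Gcg-dominant wells numbered 138 (56 and 82), and 104 wells (58 and 46) met neither threshold. Over the whole series 844 of 3072 wells were kept, and 1 well on the other 6 plates met the rule. Nts-dominant wells had a median of 8562 transcripts (2049 to 42680), against 11110 in Gcg-dominant wells (2040 to 32900). Read down to 2000 transcripts, both classes showed a similar number of genes, a median of 1166 in Nts-dominant and 1150 in Gcg-dominant wells. For tests, the wells of a class were summed per plate and condition, which gave 10 sums of 54559 to 489595 transcripts. The untreated Nts-dominant sum of plate 1 held 101264 transcripts from 9 wells, and 1 of these wells had 42676. Levels of that sum therefore lean on this well.

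L cells of the gut make GLP-1 and peptide YY, and many of them, above all toward the villus, also make neurotensin, a peptide that slows gut movement and promotes fat uptake. Bone morphogenetic proteins signal through receptor kinases and Smad proteins, which switch on the Id genes, and in the gut this signal is stronger in the villus than in the crypt. Enteroendocrine cells meet more of it as they move out of the crypt.

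The members were chosen by their Nts and Gcg values, so the levels of these 2 genes are given as a description, with no test. Among Nts-dominant wells the Nts level had a lowest value of 150.8, a median of 890.2 and a highest value of 2787 per 10000. Among Gcg-dominant wells the Nts level ran between 2.16 and 415, with a median of 9.89. The threshold fell in a sparse range: the lowest members held 150.8, 172 and 184 per 10000, and the highest kept wells under 100 held 87.9 and 82.1. Of the 109 kept wells with Nts of at least 100, only 5 had more Gcg than Nts. The member nearest to that border had an Nts to Gcg ratio of 1.03, the nearest well beyond it had 0.852, and 7 members had less than 2 times as much Nts as Gcg.

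**Figure D1:**
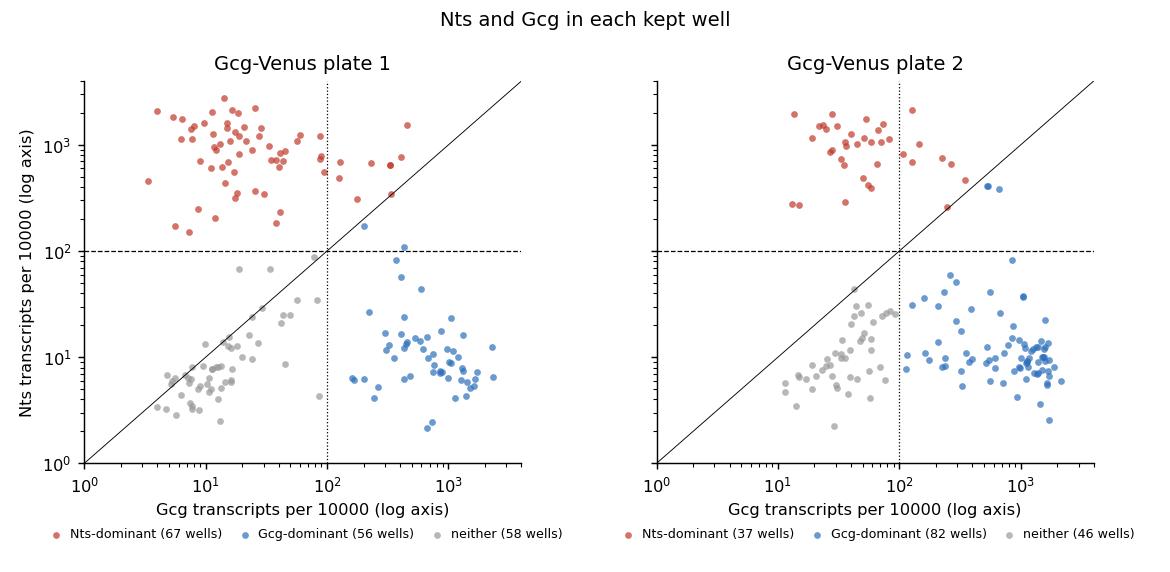
Each point is a kept well, with its Gcg level on the horizontal axis and its Nts level on the vertical axis (transcripts per 10000, log axes), for plate 1 (left) and plate 2 (right). Dashed and dotted lines mark 100 per 10000 for Nts and Gcg, and the diagonal marks equal levels. The 104 Nts-dominant wells (red) and 138 Gcg-dominant wells (blue) are cut by these same values and meet at the diagonal, and 13 kept wells lie between 50 and 200 per 10000 of Nts.

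A low level of both hormones was found in every well, including those that did not make it into either class. All 242 kept wells outside the members held some Nts, and all 104 members held some Gcg. In the 104 wells of neither class the medians were 8.06 per 10000 for Nts and 20.2 for Gcg. In 306 wells with 100 to 2000 transcripts, too few to be kept, the medians were 206 for Nts and 362 for Gcg. A low Gcg level in a member is therefore also found in wells that have little of either hormone, and its source was not tested.

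Nts lies on chromosome 10 of mm10 at chr10:102481756-102490486 (minus strand) and Gcg on chromosome 2 at chr2:62474530-62483650 (minus strand). Their promoter windows (250 bases before to 50 bases after the RefSeq start, build GRCm38.p6, both read on the minus strand) are shown because these genes separate the classes. Capitals mark a match to the AP-1 motif TGANTCA.
Nts (chr10:102490369-102490668): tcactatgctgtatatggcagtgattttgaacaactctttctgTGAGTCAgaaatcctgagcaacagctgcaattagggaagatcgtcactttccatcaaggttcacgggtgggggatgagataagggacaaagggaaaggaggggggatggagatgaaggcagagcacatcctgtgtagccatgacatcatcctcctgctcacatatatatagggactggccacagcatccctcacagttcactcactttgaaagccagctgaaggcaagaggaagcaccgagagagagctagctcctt
Gcg (chr2:62483604-62483903): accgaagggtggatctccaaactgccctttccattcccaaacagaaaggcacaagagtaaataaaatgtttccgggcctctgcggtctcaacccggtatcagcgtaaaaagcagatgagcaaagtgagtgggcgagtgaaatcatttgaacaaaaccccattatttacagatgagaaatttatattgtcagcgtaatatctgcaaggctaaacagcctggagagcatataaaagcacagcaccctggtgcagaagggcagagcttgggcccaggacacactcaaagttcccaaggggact
The Nts window held TGAGTCA 207 bases upstream of the start. The Gcg window held no match to TGANTCA, to the cyclic AMP element TGACGTCA or to GGCGCC, the GC box of BMP-responsive genes, searched on both strands. Of 32851 mouse promoter windows of this length, 7.81% held TGANTCA, 1.79% TGACGTCA and 11.87% GGCGCC, so a match describes these letters only.

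Nts-dominant wells made up a larger share of the kept wells after BMP4 than without it on both plates. On plate 1 they were 9 of 51 kept wells without BMP4, a share of 17.6% (Wilson 95% interval 9.57 to 30.3%). The share was 27.1% (17.4 to 39.6%, 16 of 59) after 24 h and 59.2% (47.5 to 69.8%, 42 of 71) after 4 days. On plate 2 it was 10% without BMP4 (4.93 to 19.2%, 7 of 70), 20.8% after 24 h (13.2 to 31.1%, 16 of 77) and 77.8% after 4 days (54.8 to 91.0%, 14 of 18). The difference between 4 days and none was 54.6 ± 18.6 percentage points (SD, n = 2 plates), and that between 24 h and none was 10.1 ± 0.925 percentage points. The direction was the same on both plates. An exact sign-flip permutation over 2 plates cannot give a two-sided p below 0.5, so this test could not pass whatever the difference. The intervals cover counting error over wells only.

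Gcg-dominant wells moved the other way. On plate 1 they made up 51.0%, 47.5% and 2.82% of the kept wells in the order none, 24 h and 4 days, and 67.1%, 44.2% and 5.56% on plate 2. At 4 days only 2 and 1 wells were Gcg-dominant, too few for a summed library of that class. On plate 2 only 18 of 192 wells at 4 days were kept, against 71 of 192 on plate 1, and whether wells were lost evenly from the classes was not tested. The same set of 384 well barcodes served both plates, and 3 barcodes were Nts-dominant on both.

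**Figure D2:**
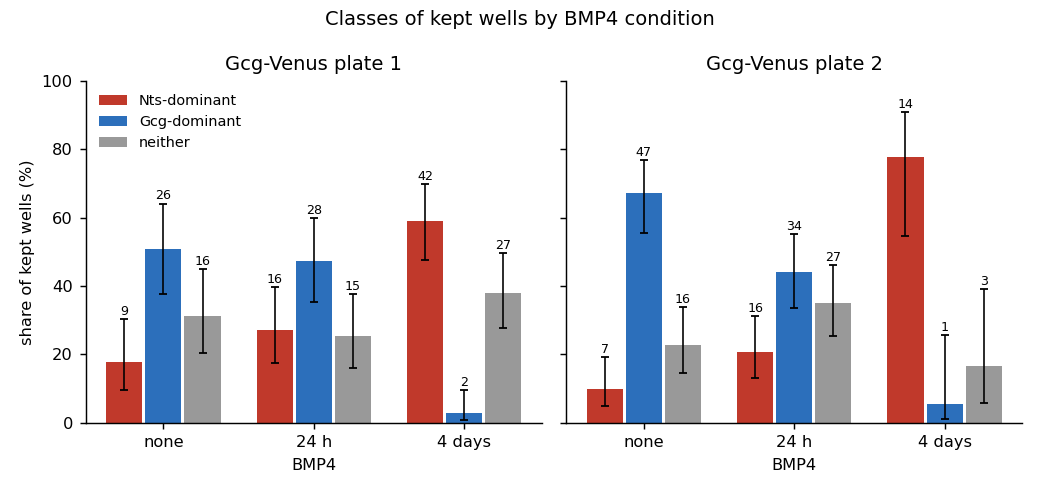
Bars give the share of kept wells (%) that were Nts-dominant (red), Gcg-dominant (blue) or neither (grey) without BMP4, after 24 h and after 4 days, for plate 1 (left) and plate 2 (right). Error bars are Wilson 95% intervals and numbers above them count wells. Nts-dominant wells reach 59.2% and 77.8% at 4 days, where Gcg-dominant wells hold 2.82% and 5.56%.

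The other hormones of the Nts-dominant wells differed between BMP4 conditions. Among Gcg, Cck, Sct and Pyy, the one that most often reached 100 per 10000 was Gcg without BMP4 and Sct at both BMP4 times, followed by Cck at 24 h and by Pyy at 4 days. Gcg reached 100 per 10000 in 11 of 16 members without BMP4, in 5 of 32 at 24 h and in 1 of 56 at 4 days. On plate 1 the Gcg level had a lowest value of 33.3, a median of 229 and a highest value of 456 per 10000 without BMP4. It had a lowest value of 6.42, a median of 24.7 and a highest value of 334 at 24 h, and 3.37, 15.5 and 94.8 at 4 days. On plate 2 the lowest, median and highest Gcg levels were 25.1, 127 and 346 without BMP4, 13.1, 35.5 and 268 at 24 h, and 13.5, 47.4 and 126.3 at 4 days. Wells of neither class had Gcg medians of 14.3, 16.1 and 10.2 on plate 1 and 35.6, 39.0 and 42.7 on plate 2 in the same order, so at 4 days the members' Gcg was close to that of wells with little of either hormone. The Nts level itself had medians of 687, 613 and 1098 on plate 1 and of 759, 842 and 1061 on plate 2, with ranges that overlap across all 3 conditions. Since members had to exceed 100 per 10000 and to exceed their own Gcg, these values describe the members and test nothing.

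Sct encodes secretin, which triggers bicarbonate release from the pancreas, and it rose in Nts-dominant wells with BMP4. On plate 1 its lowest, median and highest levels per 10000 were 0, 16.8 and 103 without BMP4, 26.6, 191 and 1233 at 24 h, and 13.0, 357 and 1152 at 4 days. On plate 2 they were 3.78, 26.9 and 47.9, then 11.6, 206 and 673, then 72.8, 417 and 762. The BMP4 medians lay above the highest untreated well on both plates, while the ranges overlapped at their low ends. Sct reached 100 per 10000 in 1 of 16 untreated members, 24 of 32 at 24 h and 49 of 56 at 4 days. In the summed libraries the level of Sct was 27.4, 303 and 364 per 10000 on plate 1 and 16.3, 253 and 449.5 on plate 2. The log2 change was 4.36 ± 0.31 (SE; adjusted p = 3.7e-11, edgeR's quasi-likelihood test with Benjamini-Hochberg adjustment) at 4 days and 3.71 ± 0.30 (adjusted p = 1.1e-09) at 24 h, each against no BMP4. Between 4 days and 24 h it was 0.65 ± 0.26 and did not pass (adjusted p = 0.56).

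Pyy, the gene of the appetite-lowering peptide YY, also rose. Its medians per 10000 were 6.73, 64.6 and 185 on plate 1 and 4.47, 62.1 and 176.5 on plate 2. The wells were spread widely: at 4 days plate 1 ran between 0 and 1277, plate 2 between 1.28 and 1051, and untreated wells reached 201 and 326. Pyy reached 100 per 10000 in 3 of 16 untreated members, 12 of 32 at 24 h and 32 of 56 at 4 days. In the sums the level was 42.5, 300.5 and 286 on plate 1 and 46.0, 192 and 505 on plate 2. The log2 change was 3.30 ± 0.32 at 4 days (adjusted p = 3.1e-08) and 2.54 ± 0.31 at 24 h (adjusted p = 6.8e-06) against no BMP4. The step between 24 h and 4 days, 0.76 ± 0.30, did not pass (adjusted p = 0.54) and had opposite signs on the plates, -0.07 on plate 1 and 1.39 on plate 2.

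Pyy and Sct met in the same wells. Both reached 100 per 10000 in 0 of 16 untreated members, 11 of 32 at 24 h and 30 of 56 at 4 days. Over members of one plate and time, the Spearman correlation of the Pyy and Sct levels was 0.62 (n = 16 wells) and 0.65 (n = 42) at 24 h and 4 days on plate 1, and 0.50 (n = 16) and 0.62 (n = 14) on plate 2. These wells share a library and the levels share a total, so the values are a description. Sct reached 100 per 10000 at 24 h in 24 of 32 Nts-dominant wells (75%), against 33 of 62 Gcg-dominant wells (53.2%) and 13 of 42 wells of neither class (31.0%). Pyy did so in 12 of 32 Nts-dominant wells (37.5%), against 30 of 62 (48.4%) and 9 of 42 (21.4%). The gaps between Nts-dominant and Gcg-dominant wells lay mostly on plate 2. For Sct the shares were 68.75% against 64.3% on plate 1 and 81.25% against 44.1% on plate 2. For Pyy they were 43.75% against 46.4% and 31.25% against 50%. At 4 days 2 of 30 wells of neither class reached 100 for Sct and 1 of 30 for Pyy. These 30 wells had a median summed level of 7.30 per 10000 over 29 secretory granule genes, against 135 in members. Over 12 enterocyte genes their median was 400, against 136 in members. At 24 h the granule median was 88.4 in wells of neither class and 120 in members. How many wells of neither class were endocrine cells was not tested. Nts was the highest of Nts, Gcg, Pyy, Sct, Cck and Ghrl in 16 of 16 untreated members, in 23 of 32 at 24 h and in 45 of 56 at 4 days.

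**Figure D3:**
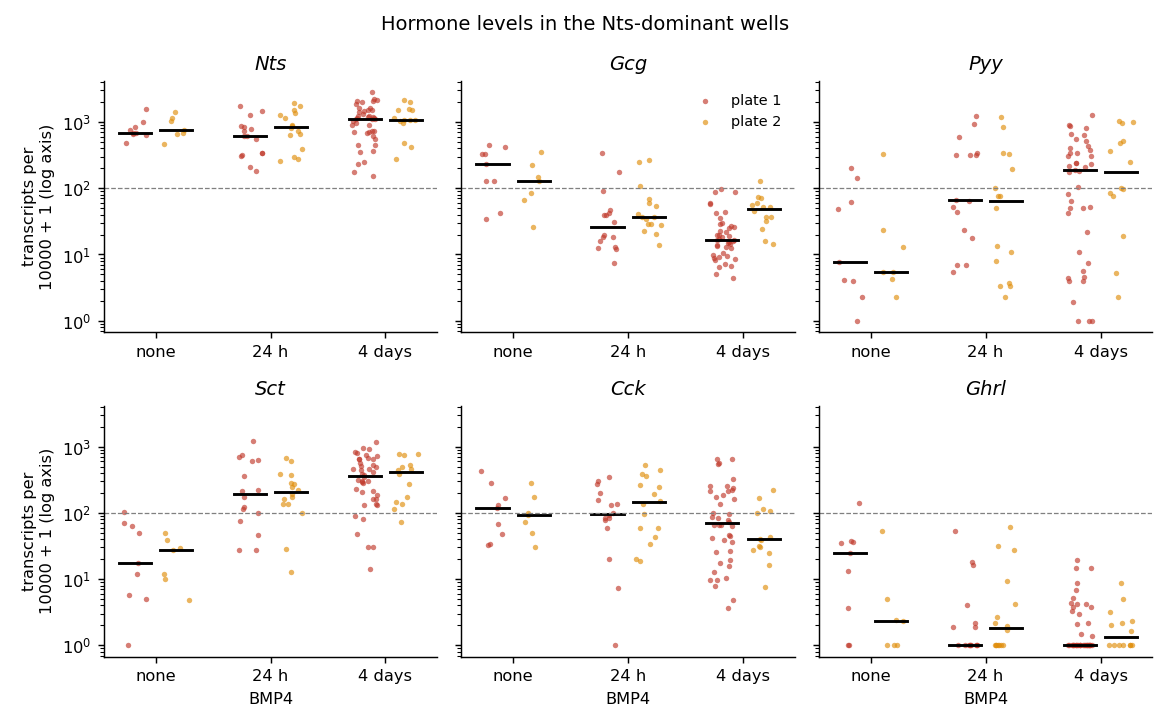
Points are the 104 Nts-dominant wells, by BMP4 condition on the horizontal axis and plate (red 1, orange 2), with transcripts per 10000 plus 1 on a log vertical axis. Black bars are medians and dashed lines mark 100 per 10000. Sct medians go over 100 at 24 h (191 and 206) and Pyy medians at 4 days (185 and 176.5), while Gcg medians at 4 days are 15.5 and 47.4.

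Cck, the gene of cholecystokinin, which empties the gallbladder, did not pass in either BMP4 comparison. Its medians in members were 119, 94.5 and 68.1 per 10000 on plate 1 and 90.6, 142.5 and 38.8 on plate 2. It reached 100 per 10000 in 7 of 16, 16 of 32 and 19 of 56 members. The log2 change at 4 days was -0.25 ± 0.31 (adjusted p = 0.82), and that at 24 h was 0.51 ± 0.31 (adjusted p = 0.68). Sst, the somatostatin gene, had a log2 change of 0.04 ± 0.36 at 4 days (adjusted p = 0.98), and it reached 100 per 10000 in 0 of 104 members, which allows a share of up to 3.56% by the Wilson interval. Ghrl, the ghrelin gene, passed as lower at 4 days, at -4.09 ± 0.63 (adjusted p = 7.8e-05), but this rested on plate 1: there the sums held 1.67 per 10000 at 4 days against 71.5 without BMP4, and on plate 2 they held 2.31 at 4 days against 3.30 without BMP4. A single well held 81.5% of the untreated Ghrl transcripts. At 24 h Ghrl also passed as lower, with a log2 change of -2.27 with both plates but 1.43 without plate 1. Gip passed as higher at 4 days, at 2.94 ± 0.73 (adjusted p = 0.023), with 71.9% of its transcripts in 1 of 56 wells, and the call ended without the plate block (adjusted p = 0.060).

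BMP4 target genes rose in the members, and of 6230 genes tested between 4 days and none 67 (1.08%) were higher and 51 (0.819%) lower. Of 13 BMP targets listed 6 could be tested and 3 of these rose; no median is given for them, since Id1, Id3, Smad6 and Smad7 were at 0 without BMP4. Id1, Id2 and Id3 encode helix-loop-helix proteins that block DNA binding of their partners. Id1 had no transcript in the 16 untreated members, and 1.78 and 2.63 per 10000 at 24 h and 4 days on plate 1 and 2.59 and 2.48 on plate 2. Id3 likewise had none without BMP4, and 2.31 and 2.78 on plate 1 and 3.13 and 3.16 on plate 2. Set against a floor of 3 transcripts over the untreated group, Id1 was at least 13.5-fold higher and Id3 at least 14.8-fold higher at 4 days (adjusted p = 3.6e-06 and 1.6e-05). At 24 h the bounds were 11.8-fold and 14.5-fold (adjusted p = 4.1e-05 and 8.4e-05). On plate 1 Id2 had 0.395 per 10000 without BMP4, 7.14 after 24 h and 7.47 after 4 days, and on plate 2 it had 0, 8.53 and 10.3, a log2 change of 5.18 ± 0.46 at 4 days (adjusted p = 3.9e-09). It was found in 4 of 16 members without BMP4, in 28 of 32 at 24 h and in 47 of 56 at 4 days. Between 24 h and 4 days the changes of Id1, Id2 and Id3 were 0.31, 0.24 and 0.15 and did not pass (adjusted p = 0.89 for Id1). The inhibitory Smads Smad6 and Smad7, which damp the pathway, had 27 and 29 transcripts at 4 days and were at 0 in untreated members, and neither passed (adjusted p = 0.23 and 0.15). Skil, a Smad corepressor, had 0.760 and 0.427 per 10000 at 4 days against 0.0988 and 0.183 without BMP4 (plates 1 and 2) and did not pass.

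The promoter windows of Sct and Id2 are shown because both genes rose in the members on each plate and both windows hold GGCGCC. Capitals mark that motif, 172 bases upstream of the Sct start and 231 bases upstream of the Id2 start (RefSeq, GRCm38.p6, both read on the minus strand).
Sct (chr7:141279084-141279383): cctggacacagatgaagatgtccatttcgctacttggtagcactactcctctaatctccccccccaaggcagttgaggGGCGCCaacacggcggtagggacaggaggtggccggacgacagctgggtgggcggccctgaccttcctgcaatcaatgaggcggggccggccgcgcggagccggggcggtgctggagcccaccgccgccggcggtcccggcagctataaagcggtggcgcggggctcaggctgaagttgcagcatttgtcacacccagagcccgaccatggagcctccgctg
Id2 (chr12:25096043-25096342): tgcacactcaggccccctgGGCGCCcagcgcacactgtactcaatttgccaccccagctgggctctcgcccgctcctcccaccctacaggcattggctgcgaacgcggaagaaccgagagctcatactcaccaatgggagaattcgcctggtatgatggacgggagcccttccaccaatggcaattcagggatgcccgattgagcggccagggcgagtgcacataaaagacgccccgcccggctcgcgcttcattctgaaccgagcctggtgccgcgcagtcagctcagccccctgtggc
The motif is its own reverse complement and occurred in 11.87% of all windows. The Cck window held it as well, 219 bases upstream, and Cck did not pass. Id1, Id3, Pyy and Ppy were also searched and gave no match to it, although all of them rose at 4 days. Whether the motif has a part in the rise of Sct or Id2 was not tested.

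No listed hormone beyond those above passed at 4 days, and few secretory granule genes did. Of 16 hormones listed 6 could be tested, of which 3 rose (Sct, Pyy and Gip) and 1 fell (Ghrl). Among 26 secretory granule genes tested 3 rose and 1 fell, with a median log2 change of 0.16 against 0.04 over all genes. Pcsk1n encodes proSAAS, an inhibitor of the prohormone convertase PC1/3. Its level was 1.48, 6.74 and 11.5 per 10000 on plate 1 and 2.38, 6.21 and 8.03 on plate 2 in the order none, 24 h and 4 days, and it rose by 2.58 ± 0.30 at 4 days (adjusted p = 1.0e-06). Syt7, a calcium sensor of vesicle release, had 5.04, 9.38 and 11.5 on plate 1 and 3.48, 9.34 and 10.85 on plate 2, a rise of 1.49 ± 0.26. Resp18, a protein of dense-core granules, had 1.88, 3.57 and 7.25 on plate 1 and 2.93, 2.63 and 6.84 on plate 2, a rise of 1.77 ± 0.31. Both passed at an adjusted p of 0.00046. Syt13, a synaptotagmin that does not bind calcium, fell by 0.97 ± 0.26 (adjusted p = 0.045), with 5.14, 2.51 and 2.67 on plate 1 and 6.05, 2.23 and 2.31 on plate 2; its adjusted p was 0.051 without the plate block.

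Ppy encodes pancreatic polypeptide and was the gene with the largest rise at 4 days. It was at 0 without BMP4 on both plates, at 0.132 and 0 per 10000 at 24 h, and at 10.2 and 9.32 at 4 days on plates 1 and 2. The 580 transcripts at 4 days lay in 10 of 56 members, and 3 wells held 80.3% of them. Against the floor of 3 transcripts Ppy was at least 52.1-fold higher at 4 days than without BMP4. Between 4 days and 24 h, 580 transcripts stood against 2, a ratio of 188 with an exact 95% counting interval of 51.9 to 1559 (adjusted p = 1.2e-10). Ppy is a paralog of Pyy and its neighbour on chromosome 11 (chr11:102099930-102101319 for Ppy and chr11:102106676-102107832 for Pyy, both on the minus strand, 5356 bases apart), so reads could be shared between them and its values are uncertain to that extent. Gcg-dominant sums held 0.101 and 0.381 per 10000 of Ppy on plate 1 and 0.0227 and 0.0409 on plate 2 without BMP4 and at 24 h.

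Other rises at 4 days took in genes of the villus tip, of receptors and of transcription control. Of the villus tip list 3 genes could be tested and 2 rose. Nt5e encodes CD73, which makes adenosine at the cell surface, and had 0.395, 4.36 and 3.30 per 10000 on plate 1 and 0.367, 4.24 and 2.99 on plate 2 (3.17 ± 0.45 at 4 days, adjusted p = 2.4e-05, and 3.53 ± 0.44 at 24 h). Klf4, a transcription factor of differentiated epithelium, had 0.198, 0.595 and 1.02 on plate 1 and 0, 0.849 and 1.88 on plate 2, that is 69 transcripts at 4 days against 2 without BMP4 (adjusted p = 0.018). Tbx3, a T-box factor, had 0.395, 2.64 and 3.26 on plate 1 and 0.550, 4.07 and 3.67 on plate 2, and rose by 3.04 ± 0.44 (adjusted p = 3.0e-05). It was the only 1 of 21 tested enteroendocrine transcription factors to pass as higher, and Onecut3 was the only 1 lower. Among 8 receptors tested Sstr1, a somatostatin receptor, rose by 2.35 ± 0.46 (adjusted p = 0.0021) and Ffar2, a receptor of short-chain fatty acids, fell, with 3 transcripts at 4 days against 12 without BMP4 (adjusted p = 0.042). Fos, an immediate early gene, rose by 2.01 ± 0.35. Phlda1, Gsdma (a gasdermin), Vim (vimentin, an intermediate filament), Hbs1l (a ribosome rescue factor), Sel1l3 and Peg3 (an imprinted zinc finger gene) were at 0 in untreated members and passed, at least 8.63-, 9.71-, 7.19-, 4.05-, 3.96- and 3.33-fold higher in that order. In untreated Gcg-dominant wells Vim had 3.42 and 5.06 per 10000, above the members' 1.085 and 2.56 at 4 days (plates 1 and 2). There Hbs1l and Sel1l3 lay below the 4-day members on plate 1 and above them on plate 2. Phlda1, Gsdma and Peg3 lay below them on both. The rule chose members anew in each condition. For every BMP4 comparison of members, whether cells changed or other cells met the rule was not tested.

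Genes that fell in Nts-dominant wells at 4 days included the goblet genes Spink4 and Agr2 and the receptor gene Gfra3. Spink4, a small peptide of goblet cells, had 7.505, 1.78 and 0.174 per 10000 on plate 1 and 8.43, 0.670 and 0.342 on plate 2, and fell by 5.10 ± 0.44 (adjusted p = 3.9e-09). Agr2, which folds mucin in goblet cells, had 1.88, 1.59 and 0.152 on plate 1 and 1.10, 1.83 and 0.0855 on plate 2, and fell by 3.43 ± 0.70 (adjusted p = 0.0028). Of 6 goblet genes tested 2 fell and 1 rose: Zg16, a goblet lectin, by 2.89 ± 0.47, though 1 of 56 wells held 55.1% of its transcripts and the call ended without the plate block (adjusted p = 0.11). Per well the summed level of the 8 goblet genes had medians of 14.7, 11.1 and 5.92 per 10000 in members without BMP4, at 24 h and at 4 days, ranging from 4.69 to 63.9, 0.726 to 41.5 and 0 to 300.6, and Spdef was at 0 in all of them. Gcg-dominant wells had goblet medians of 6.28 and 6.47 without BMP4 and at 24 h. The part of other cells in these genes was not tested.

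Gfra3, the artemin co-receptor, had 5.23, 0.661 and 0.608 per 10000 on plate 1 and 3.85, 0.804 and 0.684 on plate 2, and fell by 2.79 ± 0.33 (adjusted p = 1.5e-06). Map1b, a microtubule protein of neurons, fell by 1.14 ± 0.29 (adjusted p = 0.026), which makes 2 of 8 tested neuronal-like genes lower and none higher. The Map1b call ended with DESeq2 (adjusted p = 0.18), with no filter on low counts (0.061) and with wells thinned to 2000 transcripts (0.33). Uchl1, a ubiquitin hydrolase of neurons and endocrine cells, had 2.37, 1.65 and 1.02 on plate 1 and 1.83, 3.48 and 1.03 on plate 2 and did not pass (-0.95 ± 0.45, adjusted p = 0.40). Onecut3, a homeodomain factor, had 1.68, 1.32 and 0.174 on plate 1 and 2.75, 0.938 and 0.256 on plate 2, and fell by 3.37 ± 0.58 (adjusted p = 0.00034). Further genes that fell were Scin, an actin-severing protein (-3.66 ± 0.42), Pla2g2d, a secreted phospholipase (-3.29 ± 0.51), Car4, a membrane carbonic anhydrase (-3.25 ± 0.49), and Hpd, of tyrosine breakdown (3 transcripts at 4 days against 48 without BMP4). A single untreated member held 64.7% of the untreated Hpd transcripts, and a single one held 54.9% of those of Car4. Ccl28, an epithelial chemokine, was at 0 at 4 days against 13 transcripts without BMP4, at least 16.1-fold lower. Of 9 enterocyte genes tested 2 fell and none rose.

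**Figure D4:**
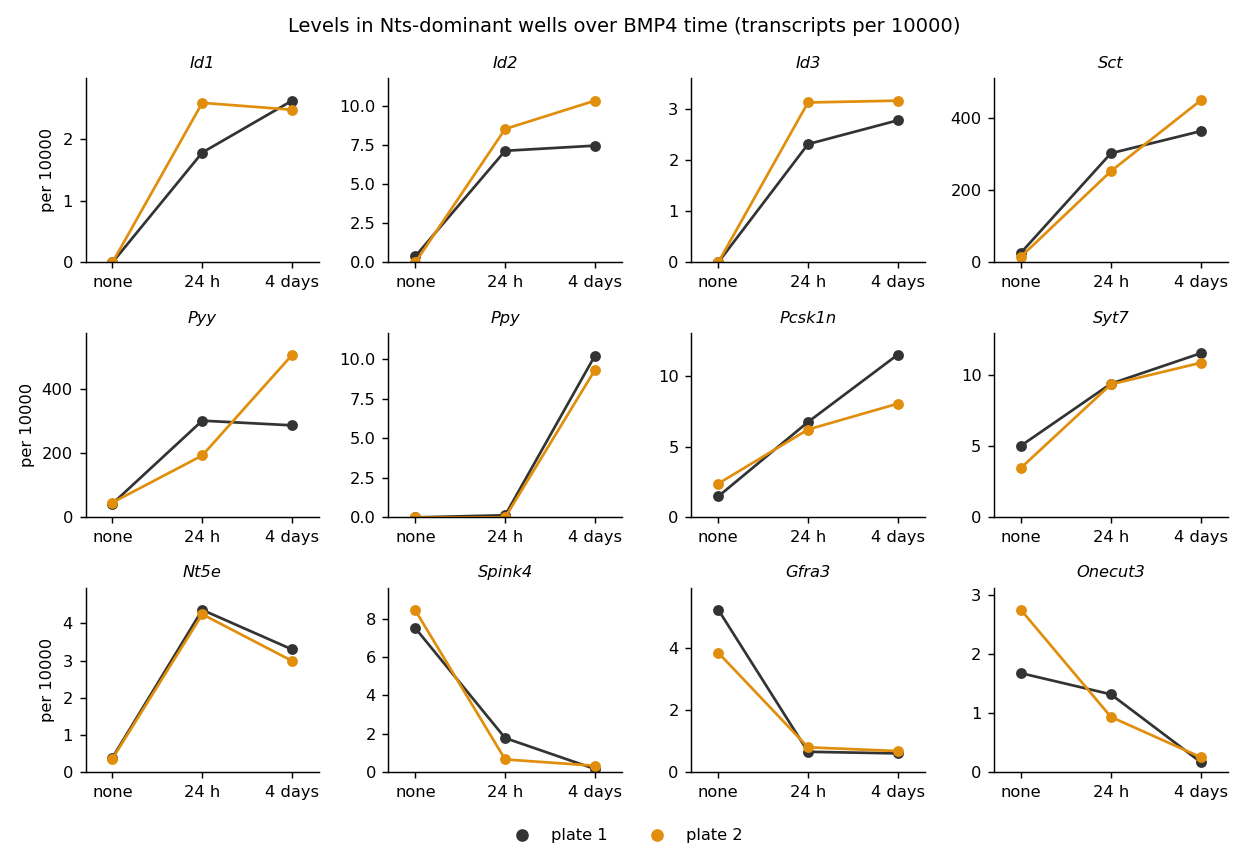
Levels of 12 genes in Nts-dominant wells (transcripts per 10000 of each summed library, linear axes from 0) without BMP4, after 24 h and after 4 days, with a line for each plate. Id1, Id2, Id3, Sct and Nt5e are up by 24 h, Ppy appears at 4 days (10.2 and 9.32), and Onecut3 is lowest at 4 days (0.174 and 0.256).

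The 24 h response was smaller in number: of 6230 genes 33 (0.530%) were higher and 17 (0.273%) lower than without BMP4. It held all 3 Id genes, Sct, Pyy, Nt5e, Tbx3 (2.92 ± 0.45), Pcsk1n (1.90 ± 0.31) and Fam101a (3.29 ± 0.57) as higher. Spink4 (-2.71 ± 0.35), Gfra3 (-2.54 ± 0.34), Scin (-2.04 ± 0.36) and Hpd (-3.38 ± 0.62) were lower. Nkx2-2, a homeodomain factor of endocrine cells, was also lower, with 3 transcripts at 24 h against 14 without BMP4 (adjusted p = 0.025). It stood at 1.09, 0.0661 and 0.608 per 10000 on plate 1 and at 0.550, 0.0893 and 0.256 on plate 2, so 24 h was the lowest of the 3 on both plates. BMP targets numbered 3 higher of 6 tested and hormones 2 higher (Sct and Pyy) and 1 lower (Ghrl) of 6. The Ghrl call rested on plate 1: its log2 change was 1.43 without that plate, and 1 well held 81.5% of its untreated transcripts.

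Between 4 days and 24 h of 6230 genes 6 (0.0963%) were higher and 9 (0.144%) lower at 4 days. On simulated data this fit recovered only 9% of 2-fold changes, so a gene that did not pass may still differ. Beside Ppy the higher ones were Zg16 (2.15 ± 0.36), Gal3st2, a sulfotransferase (1.68 ± 0.29), Resp18 (1.26 ± 0.25), Bace2, a membrane protease (1.24 ± 0.25), and Ldha, of lactate metabolism (1.23 ± 0.23). Ldha had 10.4 per 10000 at 4 days against 3.77 at 24 h on plate 1, and 9.40 against 5.18 on plate 2. The lower ones were led by Agr2 (-3.73 ± 0.61, adjusted p = 0.0028), Rgs2, a regulator of G proteins (-2.87 ± 0.56, adjusted p = 0.0099), and Onecut3 (-2.53 ± 0.56, adjusted p = 0.040). Also lower were Spink4, Slc25a35, Ceacam10, Scn3a (a sodium channel) and Mob3b, at log2 changes of -2.39, -2.20, -2.10, -2.002 and -1.90 in that order. Calls of Resp18, Onecut3, Spink4 and Zg16 ended without the plate block, at adjusted p of 0.053, 0.081, 0.081 and 0.19. Of the 14 calls named for this comparison only Agr2, Ppy and Rgs2 held in every fit. Ldha, Bace2, Gal3st2, Slc25a35 and Mob3b passed in 5 of the 7 fits that tested them. Ceacam10 passed in 6 of 7 and Scn3a in 5 of 6.

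Compared with Gcg-dominant wells of the same plates and conditions, Nts-dominant wells carried less Cck and Gip. Pyy, Sct and Uchl1 are the markers by which these cells are known, so their values are given here as a description. All 3 stayed in the fit, and they enter the counts of genes and hormones given for it. In the sums Sct had 27.4 and 16.3 per 10000 in Nts-dominant and 20.7 and 24.8 in Gcg-dominant wells without BMP4 (plates 1 and 2), and 303 and 253 in Nts-dominant against 149 and 135 in Gcg-dominant wells at 24 h. Pyy had 42.5 and 46.0 in Nts-dominant against 99.1 and 67.0 in Gcg-dominant wells without BMP4, and 300.5 and 192 against 149 and 229 at 24 h. Neither marker was higher in the members in every sum. Uchl1 was: it had 2.37 and 1.83 without BMP4 and 1.65 and 3.48 at 24 h in Nts-dominant wells, against 0.435 and 0.136 without BMP4 and 0.381 and 0.204 at 24 h in Gcg-dominant wells. Uchl1 transcripts were found in 10 of 16, 19 of 32 and 21 of 56 members without BMP4, at 24 h and at 4 days, and in 12 of 73, 15 of 62 and 0 of 3 Gcg-dominant wells.

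Of 6230 genes tested between the classes 104 (1.67%) were higher and 83 (1.33%) lower in Nts-dominant wells. The classes were cut from the same wells by 2 hormones, whose rows were left out of the totals and the fit. With the wells of neither class added to the fit 47 genes passed, and 17 of the calls given here no longer did. Of 6 hormones tested (Cck, Gip, Ghrl, Sst, Pyy and Sct) 2 were lower and none higher. Cck had 144 and 101 per 10000 in Nts-dominant and 447 and 426 in Gcg-dominant wells without BMP4, and 136 and 186 against 508 and 455 at 24 h. The log2 difference was -1.77 ± 0.23 (adjusted p = 5.3e-06), and the Cck call held in 14 of the 15 fits that tested it. Without BMP4 Cck reached 100 per 10000 in 7 of 16 Nts-dominant (43.75%) and 69 of 73 Gcg-dominant wells (94.5%). At 24 h it did so in 16 of 32 (50%) and 60 of 62 (96.8%). Over all conditions it did so in 42 of 104 Nts-dominant wells (40.4%), in 132 of 138 Gcg-dominant wells (95.7%) and in 22 of 104 wells of neither class (21.2%). These totals mix conditions unevenly, since 56 of the 104 members but only 3 of the 138 Gcg-dominant wells were at 4 days. Gip, the hormone of K cells, was lower by 3.78 ± 0.48 (adjusted p = 3.6e-06), most of it at 24 h, where it had 1.92 and 3.57 per 10000 in Nts-dominant against 42.4 and 51.2 in Gcg-dominant wells. Over all conditions Gip reached 100 per 10000 in 1 of 104 Nts-dominant and 9 of 138 Gcg-dominant wells. A few wells carried the Gcg-dominant level of Gip: 3 of 62 held 85.8% of its transcripts at 24 h and 3 of 73 held 84.9% without BMP4. The Gip call ended with the wells of neither class added (adjusted p = 0.39). Ghrl and Sst did not pass, at 0.14 ± 0.37 and -0.11 ± 0.22, and the sign of Ghrl turned to -1.02 (adjusted p = 0.015) without plate 1.

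Among the genes with the largest excess in Nts-dominant wells, Prss32, a serine protease, had 2.96 and 2.20 per 10000 in Nts-dominant against 0.234 and 0.182 in Gcg-dominant wells without BMP4. At 24 h it had 1.72 and 2.59 against 0.0545 and 0.163, a log2 difference of 3.88 ± 0.31 (adjusted p = 1.2e-09). Rab3b, a small GTPase of secretory vesicles, had 4.15 and 1.83 in Nts-dominant against 0.0670 and 0.1135 in Gcg-dominant wells without BMP4, and 1.52 and 1.74 against 0.327 and 0.143 at 24 h (3.65 ± 0.36, adjusted p = 3.6e-08). One untreated member held 69.3% of the untreated Rab3b transcripts, and for Car4 the largest share in 1 untreated member was 54.9%. Car4 had 4.94 and 2.20 in Nts-dominant against 0.0670 and 0.159 in Gcg-dominant wells without BMP4, and 1.65 and 1.29 against 0.245 and 0.0817 at 24 h (3.95 ± 0.39, adjusted p = 3.6e-08). Gpr133, an adhesion receptor, had 2.67 and 6.96 in Nts-dominant against 0.335 and 0.703 in Gcg-dominant wells without BMP4, and 10.8 and 2.81 against 1.01 and 0.204 at 24 h (3.20 ± 0.36, adjusted p = 3.5e-07). For each of these 4 genes all Nts-dominant sums lay above all Gcg-dominant sums. They were picked by the size of their difference, and how many of the 6230 genes separate this way was not counted. The separation therefore describes these genes and adds no support.

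Rassf9, a Ras-association protein, differed by 4.70 ± 0.73 (adjusted p = 6.8e-05) and Clstn2, a calsyntenin of neurons, by 3.71 ± 0.53 (adjusted p = 2.0e-05). Prrx2, a paired-type homeobox gene (3.67 ± 0.60), and Rcn1, a calcium-binding protein of the endoplasmic reticulum (3.29 ± 0.57), passed with both plates and not without plate 2 (adjusted p = 0.14 and 0.18). Uts2b, the gene of the peptide urotensin 2B, had 26 transcripts in Nts-dominant against 3 in Gcg-dominant sums and passed at an adjusted p of 0.0028, but not without plate 1 (adjusted p = 0.90). Nt5e was also higher in Nts-dominant wells, by 2.90 ± 0.27 (adjusted p = 1.9e-08), with 4.36 and 4.24 per 10000 in Nts-dominant against 0.572 and 0.409 in Gcg-dominant wells at 24 h. Without BMP4 it had 0.395 and 0.367 in Nts-dominant against 0.0670 and 0.136 in Gcg-dominant wells.

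**Figure D5:**
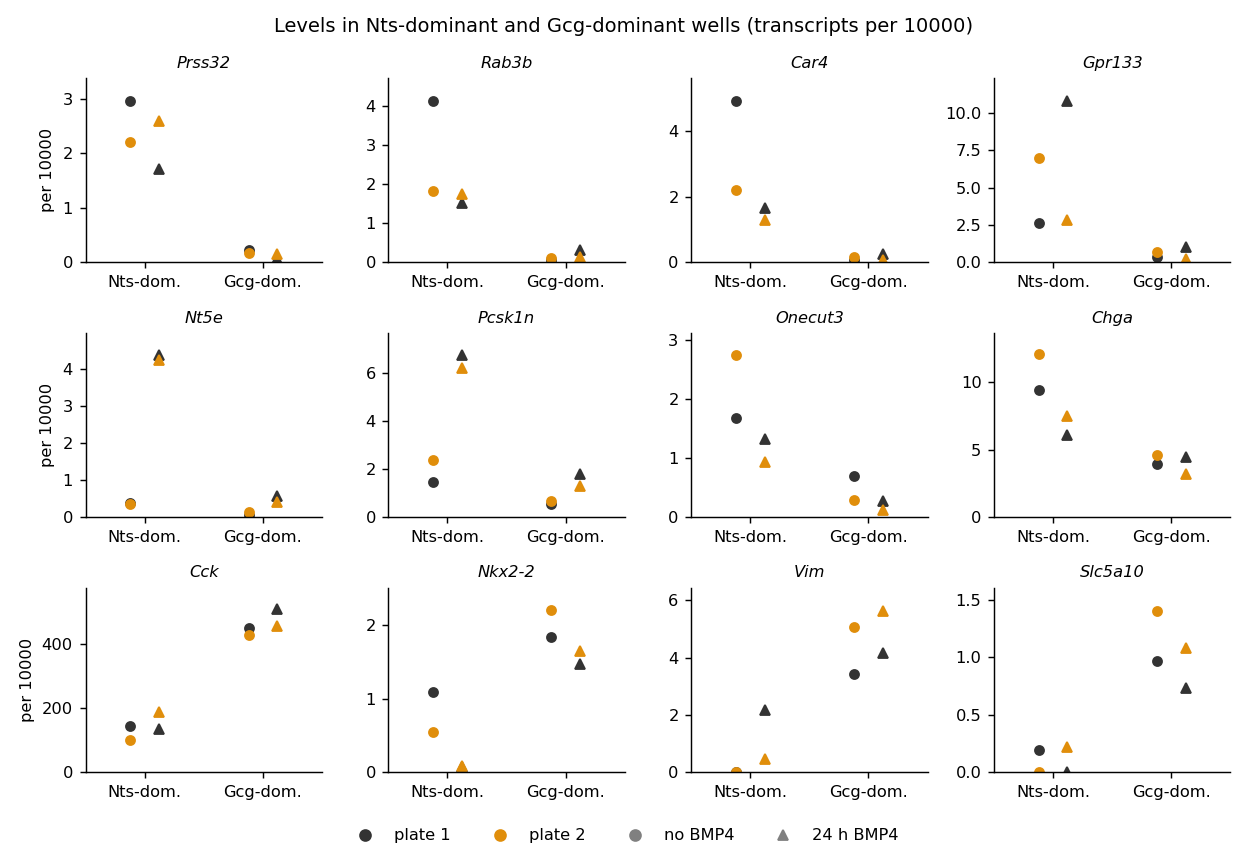
Levels of 12 genes (transcripts per 10000 of each summed library, linear axes from 0) in Nts-dominant and Gcg-dominant wells; colours are plates, circles no BMP4 and triangles 24 h of BMP4. Prss32, Rab3b, Car4 and Gpr133 are higher in every Nts-dominant sum, and Cck and Slc5a10 are lower.

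Endocrine gene groups split in both directions between the classes. Of 26 secretory granule genes tested 4 were higher and 2 lower in Nts-dominant wells, with a median log2 difference of -0.18 against 0.01 over all genes. Pcsk1n was higher by 1.84 ± 0.21 (adjusted p = 5.5e-07), at 1.48 and 2.38 per 10000 in Nts-dominant against 0.569 and 0.681 in Gcg-dominant wells without BMP4 and at 6.74 and 6.21 against 1.80 and 1.31 at 24 h. Chga, the chromogranin of endocrine granules, was higher by 0.98 ± 0.17 (adjusted p = 0.00045, and 0.27 without plate 2), whereas Ptprn2, a granule membrane protein, was lower by 1.03 ± 0.18 (adjusted p = 0.00032). Of 21 transcription factors tested 2 were higher and 2 lower. Onecut3 was higher by 2.24 ± 0.34 (adjusted p = 5.2e-05, and 0.054 without plate 2), and Tbx3 by 0.95 ± 0.23 (adjusted p = 0.017, and 0.054 and 0.83 without plate 1 and plate 2). Nkx2-2 was lower by 2.41 ± 0.39 (adjusted p = 0.00012), with 1.09 and 0.550 per 10000 in Nts-dominant against 1.84 and 2.20 in Gcg-dominant wells without BMP4 and 0.0661 and 0.0893 against 1.47 and 1.65 at 24 h.

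Receptors, neuronal-like and serotonin genes gave few calls between the classes. Sstr1 was higher by 2.35 ± 0.45 (adjusted p = 0.0011, and 0.18 without plate 2), and Gpr119, a lipid receptor of L cells, was lower by 1.01 ± 0.28 (adjusted p = 0.046, but 0.49 without plate 1, 0.065 without plate 2 and 0.067 without the plate block). The other 6 of 8 receptors tested did not pass. Nefm, a neurofilament, was lower by 1.76 ± 0.39 (adjusted p = 0.0060, and 0.14 without plate 2). Ddc, the decarboxylase that makes serotonin and dopamine, was lower by 0.96 ± 0.19 (adjusted p = 0.0012, and 0.054 without plate 2), and the other 5 of 6 serotonin genes tested did not pass. Among 6 goblet genes tested 2 were higher, Agr2 by 2.17 ± 0.36 and Fcgbp, a mucus protein, by 1.14 ± 0.28 (adjusted p = 0.015, and 0.40 without plate 2). None of 6 BMP targets and none of 11 genes of the unfolded protein response passed by edgeR's test, 1 of 9 enterocyte genes was higher and 1 lower. Summed enterocyte levels per well had medians of 207.5 and 119 per 10000 in Nts-dominant against 213.5 and 255 in Gcg-dominant wells without BMP4 and at 24 h, and Paneth, tuft and stem cell markers had medians of 0 in both.

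Among genes averaging 5 or more in log2 CPM, the largest deficits in Nts-dominant wells were in Reg4, Pdgfb and Coch, with 1 transcript each in the Nts-dominant sums without BMP4 and at 24 h, against 127, 93 and 54 in Gcg-dominant sums. Reg4, a lectin of endocrine and crypt cells, passed at an adjusted p of 4.8e-05 and not without plate 1 (0.28), Pdgfb, a growth factor, at 0.00030 and not without plate 1 (0.28), and Coch, an extracellular protein, at 0.0071 and not without plate 2 (0.074). Reg4 lay in only 4 of 73 Gcg-dominant wells without BMP4 and 4 of 62 at 24 h, where 3 wells held 99.2% of it, and its adjusted p was 0.30 with DESeq2. Pdgfb was found in 23 and 21 of these wells, and Coch in 7 and 11. Slc5a10, a sugar transporter, had 0.198 and 0 per 10000 in Nts-dominant against 0.971 and 1.41 in Gcg-dominant wells without BMP4, and 0 and 0.223 against 0.735 and 1.08 at 24 h (-2.96 ± 0.50, adjusted p = 0.00021). Vim had 0 and 0 in Nts-dominant against 3.42 and 5.06 in Gcg-dominant wells without BMP4, and 2.18 and 0.447 against 4.14 and 5.64 at 24 h (-2.66 ± 0.39, adjusted p = 3.0e-05). Fmo1, a flavin monooxygenase (-3.37 ± 0.64), Ctsh, a cathepsin (-2.69 ± 0.73), and Nr1h4, the bile acid receptor FXR (-2.56 ± 0.56), passed with both plates and with neither alone.

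Whether the classes responded differently to 24 h of BMP4 was tested as the difference of their 2 responses, and of 6230 genes 2 (0.0321%) passed with a higher and 2 (0.0321%) with a lower response in Nts-dominant wells. Cdkn1a, the cell cycle inhibitor p21, differed by 2.40 ± 0.47 (adjusted p = 0.031): it had 3.90 and 4.47 per 10000 at 24 h against 0.790 and 1.47 without BMP4 in Nts-dominant wells, and 5.39 and 7.62 against 8.54 and 8.10 in Gcg-dominant wells. Lgals2, a galectin, differed by 1.84 ± 0.33 (adjusted p = 0.015), with 31.9 and 27.2 at 24 h against 6.02 and 6.96 without BMP4 in Nts-dominant wells, and 21.4 and 20.55 against 17.1 and 14.6 in Gcg-dominant wells. Spink4 differed by -2.48 ± 0.46 (adjusted p = 0.017), with 1.78 and 0.670 at 24 h against 7.505 and 8.43 in Nts-dominant wells, and 2.12 and 1.205 against 1.44 and 2.27 in Gcg-dominant wells. Ly6e, a surface protein, differed by -1.97 ± 0.35 (adjusted p = 0.015), with 2.31 and 1.21 against 5.83 and 5.87 in Nts-dominant wells, and 5.18 and 4.74 against 4.72 and 3.68 in Gcg-dominant wells. The responses of Pyy and Sct were not shown to differ, with differences of 1.36 ± 0.42 (adjusted p = 0.46) and 1.07 ± 0.38 (adjusted p = 0.62), and none of 6 BMP targets tested passed.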

How the data were processed

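Each plate of the deposited data is a table of genes by 384 wells, 1 sorted cell per well, read by paired-end sequencing with ERCC spike-in RNAs. The values are expected counts: per the labels' protocols the authors counted molecular identifiers and corrected them for identifiers drawn more than once, and the values invert to whole identifier numbers in 100% of cases within 0.01. The labels give identifiers of 4 bases, whereas the values invert only for 6. BWA 0.6.2-r126 and mm10 are named in the submitters' processing notes; whether counting used strand is not given in the sources used here, so antisense partners cannot be told apart. BMP4 conditions came from the deposited well list.

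From there, shared gene rows (15548; the others held 0.166% and 0.0608% of transcripts) without spike-ins were used. No mitochondrial rows were listed on the Gcg-Venus plates. Wells were kept at 2000 transcripts and under 5% Kcnq1ot1. No doublet caller was run. Counts of at least 5 wells were summed per plate, condition and class, rounded, and tested without Nts and Gcg by edgeR 4.0.16 (TMM, filterByExpr, quasi-likelihood F test, R 4.3.3, limma 3.58.1) with the plate as a block, and Benjamini-Hochberg adjustment over 6230 genes at 0.05. DESeq2 1.42.0 was an alternative. The script was checked on simulated data. There the fit of 4 days against 24 h recovered 9% of 2-fold and 67.2% of 4-fold changes. The fit between the classes recovered 46.2% and 92.7%. Levels are transcripts per 10000 of a well or sum, Nts and Gcg included. Shares have Wilson 95% intervals, and intervals and floors cover counting error only. Same-plate deviations from group means correlated at 0.0042 to 0.0707 over 10 pairs; the block stands because all sums of a plate share its library.

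Named genes were those with the 10 largest changes each way among genes that passed with one sign on both plates and an average log2 CPM of 5 or more, hormones, BMP targets and transcription factors tested, and up to 4 genes of each other list; some are given by counts only. Genes named outside that rule were chosen after their values were seen. The members, lists and tests were chosen with earlier results of these data known. The comparison of 24 h with none and of the 2 classes' responses to it were added after seeing the data, because the planned one at 4 days against 24 h could not be fitted with 2 and 1 Gcg-dominant wells.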

Additional observations from a re-analysis of the deposited data

Results flagged for a closer look

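The responses of Nts-dominant and Gcg-dominant wells to 24 h of BMP4 differed by a test of the difference itself (edgeR's quasi-likelihood test with Benjamini-Hochberg adjustment) in 4 genes. The log2 difference of the responses, Nts-dominant minus Gcg-dominant, was 2.40 for Cdkn1a, 1.84 for Lgals2, -1.97 for Ly6e and -2.48 for Spink4, with the same sign on both plates for each. Thinned to 2000 transcripts per well, 0 of 1030 genes passed by edgeR. Of the 1030, 56 had an unadjusted p under 0.05, close to the share that this threshold passes where nothing differs. DESeq2 called 1 gene at full depth. Whether free RNA or the number of wells in a sum moved with these 4 genes was not tested.

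Outside the Gcg-Venus plates, 1 well met the rule for Nts-dominant cells. It lies on plate 2 of the Tac1 line at 4 days of BMP4, a plate that entered no comparison here.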

How the results depend on the processing

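Between the classes 187 genes passed, against 115 with DESeq2 (77 higher and 38 lower, where edgeR gave 104 and 83), 246 with no filter on low counts (115 higher and 131 lower), 123 with at least 10 wells per sum, 32 of 1030 with every well thinned to 2000 transcripts, 47 with the wells of neither class added (35 higher and 12 lower), and 83 to 103 with a plate left out. At 4 days against none, 118 became 70 with DESeq2, 44 thinned (31 higher and 13 lower), and 157 (105 higher and 52 lower) with no filter on low counts. At 24 h against none, 50 became 26 with DESeq2 and 9 thinned. At 4 days against 24 h, 15 became 4 with DESeq2, 41 with no filter, 26 with at least 10 wells and 2 thinned. For the difference of the responses, 4 became 1 with DESeq2, 15 with no filter and 0 thinned (56 of 1030 at an unadjusted p under 0.05). Thinning left fewer genes to test and a plate left out fewer sums; for the other settings the cause was not tested.

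The gain in share at 24 h of 10.1 percentage points was 8.16 with Nts of at least 50 per 10000, 11.4 with Nts at least 2 times Gcg, 9.16 with at least 4000 transcripts, 11.5 with no filter on Kcnq1ot1, and 9.47 to 10.8 with a plate left out.

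Signs turned for Ghrl between the classes (-0.28 with at least 10 wells, -0.27 thinned, -1.02 without plate 1 and 0.34 without plate 2) and at 24 h (1.43 without plate 1 and -3.97 without plate 2), for Sst between the classes (0.20 with neither-class wells) and at 4 days (-0.21 without the plate block), for Cck at 4 days (0.094 without plate 2 and -0.73 without plate 1) and for the Id2 difference of responses (-0.24 thinned). The cause was not tested.

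Without the plate as replicate block 169, 104, 10, 45 and 4 genes passed between the classes, at 4 days against none, at 4 days against 24 h, at 24 h and for the difference of responses. Beyond the calls given in the report as ended by it, it changed no other named call. Calls that held in every fit numbered 7 of 32 named between the classes, 26 of 35 at 4 days against none, 8 of 15 at 24 h, 3 of 14 at 4 days against 24 h and 0 of 4 for the difference of responses. With a plate left out the BMP4 comparisons have no residual degrees of freedom and give values only, and sums of at least 10 wells left none without BMP4.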
